A study of Mus musculus with 18 samples.

Results

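Mitochondrial ribosomal proteins are the protein subunits of the ribosome inside mitochondria. The genes described here were all those on the array whose probe set carried exactly 1 gene symbol beginning with Mrpl (large subunit) or Mrps (small subunit) and then a number. This rule used names and no measured effect, but the gene group was chosen with earlier results of these data known. It found 74 genes, 47 Mrpl and 27 Mrps, on 127 probe sets, out of 12393 genes and 22626 probe sets measured. Each gene was read on its brightest probe set, taken as the mean over 18 arrays. The study asked how the testis transcriptome responds to follicle-stimulating hormone (FSH), the pituitary hormone that acts on Sertoli cells. All 18 animals were described as adult hypogonadal (hpg) male mice aged 10 weeks, a strain that lacks gonadotrophin-releasing hormone. Each whole testis sample went to its own Affymetrix mouse array. Recombinant FSH (rFSH, Gonal F) was given under the skin at 8 IU in 0.2 ml PBS, repeated every 12 h, for 12 h (4 mice), 24 h (3 mice) or 72 h (4 mice), and 7 untreated hpg males served as controls. The hpg description was the same for every group. Since the tissue was bulk testis, fewer cells of a type and less RNA per cell could not be told apart.

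The mitochondrial ribosome translates the few membrane proteins of the respiratory chain that mitochondrial DNA still encodes. Its RNAs come from that DNA, but each of its proteins is made from a nuclear gene in the cytosol and imported. Some subunits have a counterpart in bacterial ribosomes and others occur only in mitochondria. Nuclear genes for mitochondrial proteins often carry binding sequences for NRF1, for ETS factors such as GABP and for YY1 near their start sites. In Sertoli cells the FSH receptor signals mainly through cyclic AMP.

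Promoter windows, from 250 bases before to 50 bases after the annotated start, were found in RefSeq (build GRCm38.p6) for 65 of the 74 genes. Those of 4 genes that recur in the results are shown because their expression rose after FSH, so that their start regions can be read beside the values. Mrps15, called higher at 12 h and 72 h, also had a window, which held none of the searched motifs and is not shown. Capitals mark matches to the searched motifs and lower case is the rest of the window. In Mrpl58 the capitals are ETS letters, in Mrpl52 the same letters on the opposite strand (CTTCCGG), in Mrpl57 they are an NRF1 match followed by an ETS match, and the Mrps6 window held none of the searched motifs.
Mrps6, chr16:92058086-92058385, plus strand: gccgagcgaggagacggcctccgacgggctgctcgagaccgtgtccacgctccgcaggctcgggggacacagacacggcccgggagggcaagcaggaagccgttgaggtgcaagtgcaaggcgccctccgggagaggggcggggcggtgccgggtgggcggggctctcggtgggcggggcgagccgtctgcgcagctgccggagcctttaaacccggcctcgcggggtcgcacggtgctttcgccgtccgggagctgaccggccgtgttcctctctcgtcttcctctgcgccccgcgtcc
Mrpl52, chr14:54426659-54426958, plus strand: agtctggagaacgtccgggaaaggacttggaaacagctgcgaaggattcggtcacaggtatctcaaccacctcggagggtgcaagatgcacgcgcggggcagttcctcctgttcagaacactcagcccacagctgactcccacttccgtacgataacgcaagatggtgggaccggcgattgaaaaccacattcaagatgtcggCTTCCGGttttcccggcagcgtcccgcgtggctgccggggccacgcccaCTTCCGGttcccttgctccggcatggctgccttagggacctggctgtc
Mrpl57, chr14:57825989-57826288, plus strand: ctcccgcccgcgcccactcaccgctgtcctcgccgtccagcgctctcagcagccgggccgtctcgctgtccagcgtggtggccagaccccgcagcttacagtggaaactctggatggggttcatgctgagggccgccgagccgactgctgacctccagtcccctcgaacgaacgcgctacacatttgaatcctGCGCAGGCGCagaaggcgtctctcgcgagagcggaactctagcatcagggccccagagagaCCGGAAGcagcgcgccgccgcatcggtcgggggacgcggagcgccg
Mrpl58, chr11:115403502-115403801, plus strand: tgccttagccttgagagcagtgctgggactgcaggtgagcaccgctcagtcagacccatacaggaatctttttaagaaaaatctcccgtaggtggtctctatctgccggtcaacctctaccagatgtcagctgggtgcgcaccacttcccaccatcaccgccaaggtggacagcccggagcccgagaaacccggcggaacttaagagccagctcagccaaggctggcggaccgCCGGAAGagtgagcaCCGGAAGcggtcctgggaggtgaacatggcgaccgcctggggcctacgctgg

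Exact letters were searched on both strands of every window. The ETS core CCGGAAG lay in the windows of 24 of 65 members (36.9%), against 16.4% of 9882 measured genes with a window and 8.86% of all 32851 windows. The NRF1 motif, a GC-rich run of letters, lay in 12 members (18.5%), against 9.36% of measured genes and 4.6% of all windows. The YY1 letters AAGATGGCG lay in 7 members (10.8%), against 2.82% of measured genes and 1.4% of all windows. All 3 of these motifs are known from promoters of nuclear genes for mitochondrial proteins, and no test was applied to these shares. The measured genes include genes of low signal. No motif share was taken over genes at a mean level of 4 or more alone, where all members lay.

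The cyclic AMP response element TGACGTCA was found in 2 members (3.08%), against 3% of measured genes and 1.79% of all windows. Its short core TGACG, which every full element also contains, was in 26 members (40%), against 31.4% of measured genes and 20.8% of all windows. The E-box CACGTG was in 5 members (7.69%), against 10.8% of measured genes and 7.15% of all windows. Of the 19 members called higher at some time, 15 had a window, and 8 of the 15 held the ETS core, while 16 of the 50 members with a window that were never called held it. For the other motifs these 2 counts were 2 and 10 (NRF1), 2 and 5 (YY1) and 1 and 1 (TGACGTCA). They were 6 and 20 for TGACG and 3 and 2 for the E-box. Differences between called and uncalled members were not tested. A match is a run of letters and not a shown binding site. The windows of Mrpl46 and Mrps11 overlap on chromosome 7, where these genes point away from each other.

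The arrays fell into 2 sets, told apart by a spiked control RNA (Dap) at 8.05 to 8.86 on 12 arrays and at 2.70 to 3.41 on the other 6. The 6 also carried high 18S signals, 9.07 to 11.7, where the 12 had 3.35 to 3.70. The 12 h and 72 h arrays and controls 4 to 7 were in the first set, and the 24 h arrays and controls 1 to 3 in the second, so each time was set only against controls of its own set. One library went against the rest. Untreated control 6 read 7.68 to 12.3 on 6 spermatid markers (Prm1, Prm2, Tnp1, Tnp2, Acrv1 and Odf1), which read 2.39 to 4.49 on the other 17 arrays. Whether this animal was hpg, as described, was not tested. Counts of called members, member medians and counts above 0 at 12 h and 72 h are therefore also given without control 6. So are many single calls. Counts of groups that do not overlap, quartiles, medians by array, classes of members and cell markers are given only with it. The response to FSH was seen in inhibin alpha (Inha), whose log2 level was higher by 1.87, 1.75 and 1.94 at 12, 24 and 72 h.

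Some markers of other cells moved with the treatment too. Of all genes, 3.52%, 6.38% and 4.23% were called higher at 12, 24 and 72 h, and 2.76%, 8.45% and 3.03% lower. Of 5 peritubular myoid, 5 endothelial and 2 red blood cell markers, 0 were called at any time. Of these, 1, 3 and 2 had a control mean below 4. Of 6 Leydig cell markers, 2 were called higher at 12 h, 3 at 24 h and 0 at 72 h. The array medians of that list were 7.57 to 7.82 at 12 h, 6.78 to 8.19 at 24 h and 6.56 to 6.93 at 72 h. They were 5.88 to 6.17 in controls 1 to 3 and 5.84 to 6.65 in controls 4 to 7. Of 9 spermatogonial markers, 1, 3 and 2 were called lower at 12, 24 and 72 h. Their array medians were 5.40 to 6.52 at 24 h, against 7.23 to 7.67 in controls 1 to 3. At 12 h they were 7.18 to 7.75 and at 72 h 6.44 to 7.10, against 7.12 to 8.25 in controls 4 to 7. Of 10 Sertoli markers, 2 were called higher and 2 lower at 12 h, 1 lower at 24 h, and 2 higher and 1 lower at 72 h. Their array medians were 8.65 to 8.88 at 12 h, 8.22 to 8.94 at 24 h and 8.19 to 8.52 at 72 h, against 8.70 to 9.30 in controls 1 to 3 and 8.39 to 8.78 in controls 4 to 7. Of 6 macrophage markers, 1 was called lower at 12 h, 1 lower at 24 h and 1 higher at 72 h. Their array medians at 72 h, 7.19 to 7.52, lay above the 6.36 to 7.12 of controls 4 to 7, while those at 12 h (6.41 to 6.83) overlapped these controls and those at 24 h (6.22 to 6.76) overlapped the 6.21 to 6.64 of controls 1 to 3. The part of these cells in the results below was not tested.

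All 74 genes were well expressed. Their mean log2 levels over the 18 arrays ran from 6.20 to 10.6 with a median of 8.29, against a median of 5.33 over all 12393 genes, and all 74 were at 4 or more, as were 59.5% of all genes. The highest signals came from Mrpl52 (10.56), Mrpl39 (10.55) and Mrpl51 (10.07), and the lowest from Mrpl34 (6.39), Mrpl14 (6.27) and Mrpl19 (6.20). Signals of different probe sets also depend on the probes, so this order is of signals and not of RNA amounts.

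After FSH the group moved upward by a small amount at each time, and no member was called lower at 12, 24 or 72 h. Calls used limma with Benjamini-Hochberg adjustment over all 22626 probe sets and an adjusted p under 0.05. At 12 h, 7 of 74 genes (9.46%) were called higher, where 3.52% of all genes were, and 0 were called lower, where 2.76% of all genes were. At 24 h, 10 of 74 (13.5%) were called higher and 0 lower, against 6.38% and 8.45% of all genes. At 72 h, 12 of 74 (16.2%) were called higher and 0 lower, against 4.23% and 3.03% of all genes. The 12 h and 72 h comparisons share controls 4 to 7.

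Members were brighter than most genes, so genes at a mean level of 4 or more are the closer background. Of those 7372 genes, 5.55% were called higher and 4.18% lower at 12 h. The 24 h shares were 6.05% and 13.8%, and the 72 h shares were 6.76% and 4.67%. The members' shares of higher calls were above these at each time. At an unadjusted p under 0.05, limma gave 22 members higher and 1 lower at 12 h (8.32% and 9.18% of all genes), 17 higher and 3 lower at 24 h (17.5% and 15.1%), and 24 higher and 0 lower at 72 h (9.76% and 9.51%).

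The arrays themselves can be compared without a model, by asking in how many genes every FSH array lay outside the range of its controls. At 12 h this held upward for 12 members and downward for 0, against 6.08% and 5.94% of all genes. At 72 h it held upward for 22 and downward for 0, against 7.46% and 6.75%. At 24 h it held upward for 20 and downward for 3, against 24.5% and 13% of all genes. Of the genes at level 4 or more, upward shares at the 3 times were 9.39%, 12% and 11.4%, and downward shares were 9.02%, 20.8% and 10.3%. The members' upward share at 24 h, 27%, was thus close to that of all genes and above that of the genes at level 4 or more.

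Without control 6, 4 of 74 members (5.41%) were called higher at 12 h, against 2.7% of all genes and 4.3% of those at level 4 or more, so the 12 h share was near the closer background. At 72 h 7 (9.46%) were called higher, against 3.54% and 5.67%. All 4 and all 7 were also called with it, and 0 were called lower at either time (1 and 0 at an unadjusted p under 0.05 by limma). Leaving out any 1 of the 18 arrays gave 3 to 8 higher calls at 12 h, the fewest without control 7, and 7 to 15 at 72 h, the fewest without control 6 or 72 h array 2. At 24 h the range was 4 to 12, the fewest without control 2.

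The 24 h arrays and controls 1 to 3 share replicate numbers and their same-numbered deviations ran together. With the replicate number as a block and these 6 arrays alone, limma called 0 of the 22626 probe sets and so 0 of the 10 members, with 16 members higher and 1 lower at an unadjusted p under 0.05 and a lowest adjusted p of 0.0664. With that block and all 18 arrays in the fit, an alternative added after the data were seen, 12 members were called higher (16.2%) and 1 lower (1.35%). That fit called more of everything, 11.5% of all genes higher and 11% lower, or 7.73% and 17.8% of those at level 4 or more. In a fit of the 6 arrays without a block, 3 members were called higher, Mrps28, Mrps6 and Mrpl34 (0.45 on the log2 scale, adjusted p = 0.0271), of which Mrpl34 was not called in the fit of all 18 arrays (adjusted p = 0.0541). The 24 h calls below thus rest on the spread estimated from all 18 arrays, in a fit without the block.

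**Figure D1:**
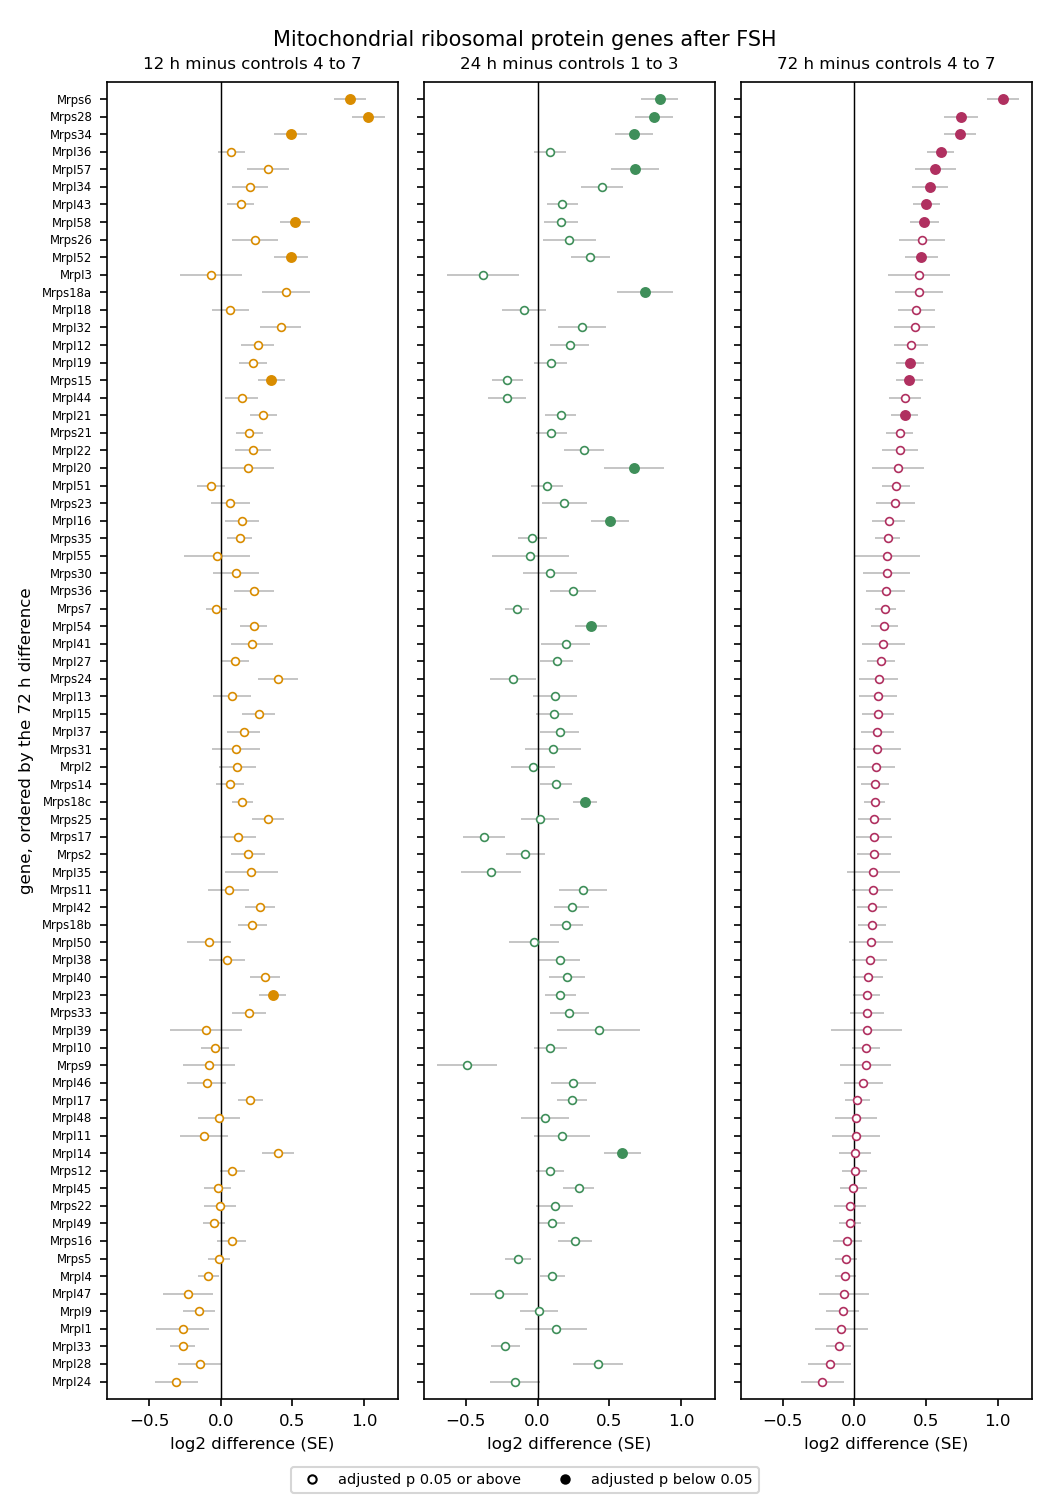
Log2 difference of each of the 74 genes (rows, ordered by the 72 h value) at 12, 24 and 72 h of FSH from untreated controls of the same array set, with bars for the standard error. Filled points have an adjusted p below 0.05 and number 7, 10 and 12, all to the right of 0.

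The shift was broad and shallow. The median log2 difference of the 74 genes was 0.14 at 12 h, 0.14 at 24 h (0.23 after quantile normalization of the arrays) and 0.16 at 72 h, against -0.0048, 0.04 and 0.01 over all 12393 genes and -0.04, -0.09 and -0.03 over the 7372 genes at level 4 or more. Without control 6 the member medians were 0.15 at 12 h and 0.19 at 72 h. At 12 h 52 of 74 members were above 0 (70.3%, against 42.6% of all genes), at 24 h 56 (75.7%, against 59.1%) and at 72 h 62 (83.8%, against 57.9%). Without control 6, 57 were above 0 at 12 h and 63 at 72 h, against 52.3% and 60.2% of all genes. The lower and upper quartiles of the members were -0.02 and 0.24 at 12 h. They were 0.01 and 0.26 at 24 h, then 0.08 and 0.34 at 72 h.

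**Figure D2:**
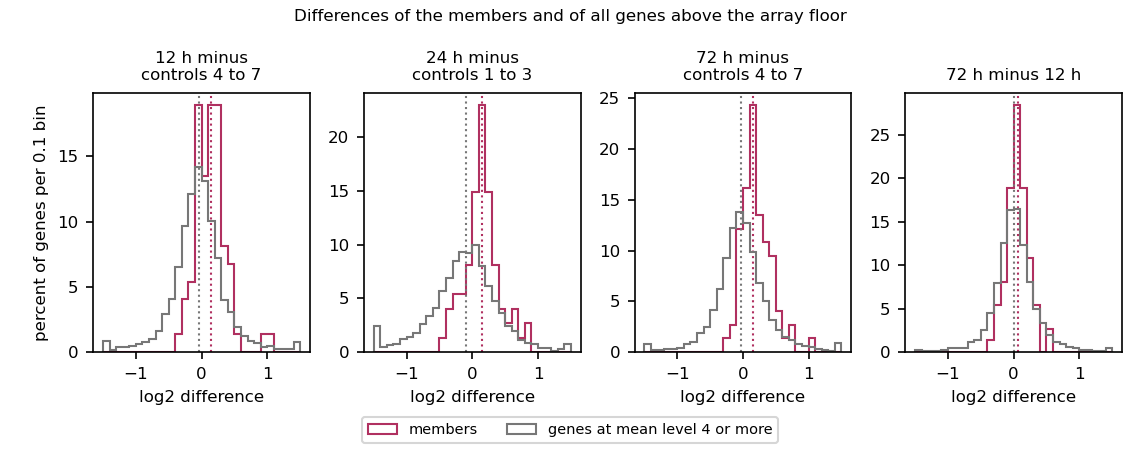
Share of genes (percent per bin of 0.1) by log2 difference, for the 74 mitochondrial ribosomal protein genes and for the 7372 genes at a mean level of 4 or more, with dotted lines at the medians and values beyond the axis gathered in the end bins. The member curve sits to the right of the other at 12, 24 and 72 h against controls (medians 0.14, 0.14 and 0.16), and near it for 72 h minus 12 h (0.07 against 0.01).

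Array by array, the shift was uneven. The median member stood above its same-set controls by 0.21, 0.14, 0.03 and 0.09 on the 12 h arrays, by 0.16, 0.11 and 0.23 on the 24 h arrays, and by 0.28, 0.20, 0.15 and 0.05 on the 72 h arrays. Each control array, set against the other controls of its set, gave -0.05, -0.05 and 0.12 for controls 1 to 3 and -0.09, 0.01, 0.04 and 0.03 for controls 4 to 7. Control 3 stood above 24 h array 2, and controls 6 and 7 stood above 12 h array 3, so these medians overlapped between FSH and control animals at 12 h and 24 h. At 72 h they did not, by a narrow gap between 72 h array 4 and control 6.

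**Figure D3:**
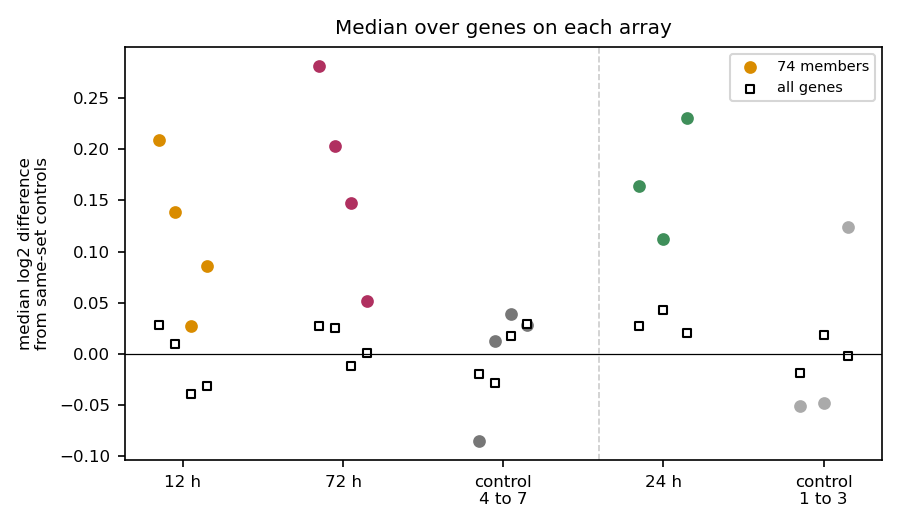
Median log2 difference from same-set controls on each array, over the 74 members (filled circles) and over all genes (open squares), with each control array set against the other controls of its set. The all-gene medians stay between -0.04 and 0.04, while the member medians reach 0.28 at 72 h and lie between -0.09 and 0.12 on the control arrays.

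The most responsive members were in the small subunit. Mrps6, the counterpart of bacterial S6, read 10.01, 9.82, 9.51 and 9.74 after 12 h and 9.92, 10.12, 9.82 and 9.75 after 72 h, against 8.61, 8.95, 9.01 and 8.89 in controls 4 to 7. Its 24 h arrays read 9.07, 9.35 and 9.19, against 8.37, 8.35 and 8.33 in controls 1 to 3. Every FSH array lay above every control of its set. The log2 difference was 0.90 ± 0.11 at 12 h (SE, 1.87-fold, adjusted p = 0.00016), 0.85 ± 0.13 at 24 h (1.81-fold, adjusted p = 0.000717) and 1.04 ± 0.11 at 72 h (2.05-fold, adjusted p = 6.51e-05). Without control 6 it was 0.95 at 12 h and 1.09 at 72 h. The gene overlaps Slc5a3, a myo-inositol transporter, whose probe set differed by 0.00, 0.05 and 0.05, none called. That probe set read a mean of 2.55, below the level of 4 used here, where a change could be missed.

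Mrps28, another protein of the small subunit, read 9.13, 8.94, 8.55 and 8.76 after 12 h and 8.79, 8.67, 8.54 and 8.24 after 72 h, against 7.75, 7.86, 7.83 and 7.82 in controls 4 to 7. At 24 h it read 8.42, 8.45 and 8.39, against 7.70, 7.51 and 7.62 in controls 1 to 3. Again no FSH array overlapped its controls, and the controls lay close together. The difference was 1.03 ± 0.12 at 12 h (SE, 2.04-fold, adjusted p = 7.47e-05), 0.81 ± 0.13 at 24 h (1.76-fold, adjusted p = 0.00134) and 0.74 ± 0.12 at 72 h (1.67-fold, adjusted p = 0.00126). Its 72 h arrays averaged 0.29 below its 12 h arrays, a difference that was not called (adjusted p = 0.324). Leaving out any single array kept Mrps6 and Mrps28 called at each of the 3 times.

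Mrps34, found only in mitochondrial ribosomes and mutated in a mitochondrial disease in humans, read 7.62, 7.93, 7.97 and 7.89 after 12 h and 8.22, 8.07, 8.26 and 7.86 after 72 h, against 7.48, 7.27, 7.52 and 7.19 in controls 4 to 7. After 24 h it read 7.69, 8.08 and 7.80, against 7.25, 7.07 and 7.22 in controls 1 to 3. The groups did not overlap at any of the 3 times. Differences were 0.49 ± 0.11 (SE, adjusted p = 0.0197) at 12 h, 0.67 ± 0.13 (adjusted p = 0.00401) at 24 h and 0.74 ± 0.11 (adjusted p = 0.00111) at 72 h. The 12 h call was lost without 12 h array 2, 3 or 4 or without control 5 or 7 (adjusted p of 0.0102 to 0.0684 over all single omissions), and was kept without control 6 (0.54, adjusted p = 0.0195).

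Mrps15, the counterpart of bacterial S15, which binds the RNA of the small subunit, moved differently at 24 h. It read 8.96, 8.57, 8.67 and 8.77 after 12 h and 8.67, 8.96, 8.79 and 8.68 after 72 h, against 8.32, 8.47, 8.36 and 8.41 in controls 4 to 7, and both FSH groups lay above all 4 controls. It read 8.04, 7.98 and 7.74 after 24 h, against 8.06, 8.27 and 8.07 in controls 1 to 3, with all 3 FSH arrays lowest. The difference was 0.35 at 12 h (adjusted p = 0.0395) and 0.38 at 72 h (adjusted p = 0.0222), but -0.21 at 24 h (adjusted p = 0.189), and the 24 h effect minus the 12 h effect, -0.56, was not called (adjusted p = 0.0802). Without control 6 neither call held (adjusted p of 0.0883 at 12 h and 0.0525 at 72 h). The 12 h call was also lost without 12 h array 1, 3 or 4, 72 h array 3 or control 4 or 7, and the 72 h call without 72 h array 2 or 3 or control 4 (highest adjusted p of 0.107 and 0.0769).

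**Figure D4:**
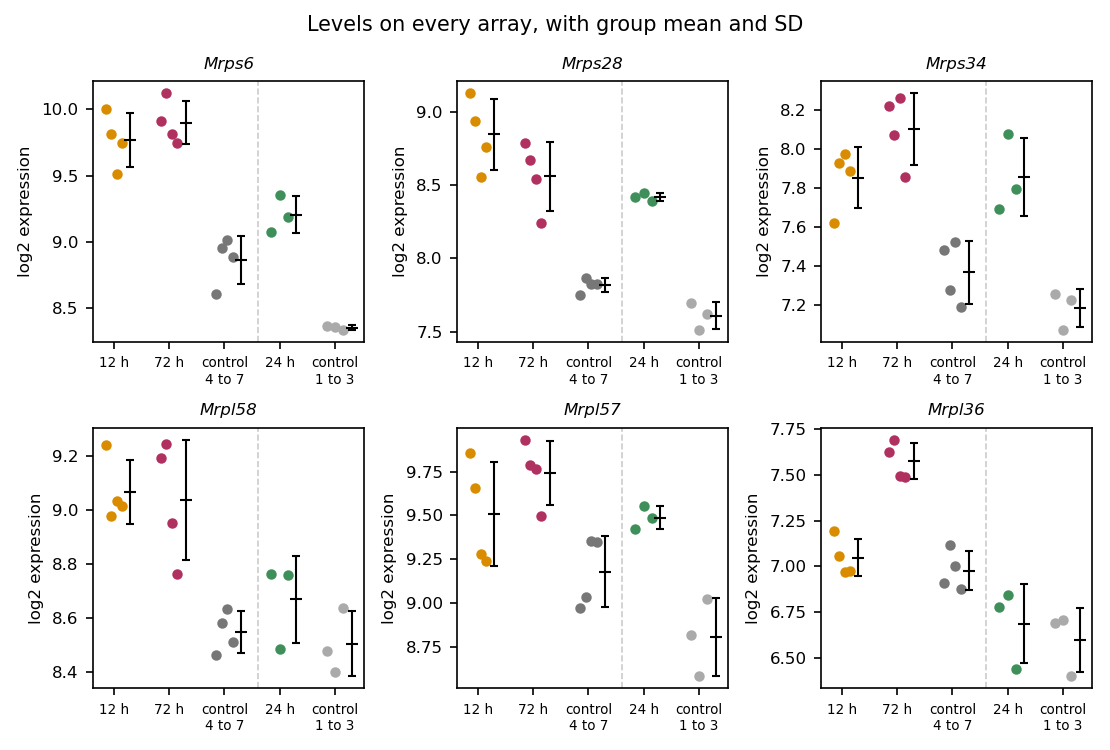
Log2 level on each array (points) with group mean and SD, for Mrps6, Mrps28, Mrps34, Mrpl58, Mrpl57 and Mrpl36, where the dashed line parts the 2 array sets. Mrps6, Mrps28 and Mrps34 lie above their own controls at 12, 24 and 72 h, Mrpl58 at 12 and 72 h, Mrpl57 at 24 and 72 h, and Mrpl36 at 72 h alone.

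Of the large subunit proteins found only in mitochondria, Mrpl58 and Mrpl52 followed at 12 h and 72 h. Mrpl58, also known as Ict1, is a peptidyl-tRNA hydrolase that can rescue stalled ribosomes and is also built into the large subunit. It read 9.24, 8.98, 9.03 and 9.01 after 12 h and 9.19, 9.24, 8.95 and 8.76 after 72 h, against 8.46, 8.58, 8.64 and 8.51 in controls 4 to 7, with no overlap. The difference was 0.52 ± 0.10 at 12 h (SE, 1.43-fold, adjusted p = 0.0069) and 0.49 ± 0.10 at 72 h (1.4-fold, adjusted p = 0.00984), and both calls held without control 6 (0.55 and 0.52). At 24 h the arrays read 8.76, 8.48 and 8.76, against 8.48, 8.40 and 8.64 in controls 1 to 3, and these groups overlapped (0.17, adjusted p = 0.35).

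Mrpl52, the member with the highest signal, read 11.02, 10.69, 10.68 and 10.57 after 12 h and 10.90, 10.80, 10.60 and 10.56 after 72 h, against 10.11, 10.43, 10.19 and 10.26 in controls 4 to 7. At 24 h it read 10.76, 10.71 and 10.77, against 10.20, 10.27 and 10.67 in controls 1 to 3. The FSH arrays lay above their controls at each time, by a narrow gap at 24 h. Its difference was 0.49 ± 0.12 at 12 h (SE, adjusted p = 0.0225), 0.37 ± 0.13 at 24 h (adjusted p = 0.0834) and 0.47 ± 0.12 at 72 h (adjusted p = 0.0273). Without control 6 the 12 h and 72 h calls were lost (adjusted p of 0.0579 and 0.0643). Omitting control 4 or 7, array 1 of the same time or 72 h array 2 (for 72 h) also ended them (highest adjusted p of 0.0706 and 0.0848). A second probe set of the gene gave 0.80 at 12 h (adjusted p = 0.000108), 0.45 at 24 h (adjusted p = 0.0131) and 0.54 at 72 h (adjusted p = 0.00271). At 12 h, 1 of the 2 called members with several probe sets, Mrpl52 and Mrps15, had a further probe set of the opposite sign. It was not called in that direction.

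Mrpl57 was called at 24 h and 72 h. After 24 h it read 9.42, 9.55 and 9.48, against 8.82, 8.58 and 9.02 in controls 1 to 3, and after 72 h 9.93, 9.78, 9.77 and 9.49, against 8.97, 9.04, 9.35 and 9.35 in controls 4 to 7. Neither pair of groups overlapped, whereas at 12 h the readings of 9.85, 9.66, 9.28 and 9.24 overlapped those controls. The difference was 0.68 ± 0.17 at 24 h (SE, 1.6-fold, adjusted p = 0.0165), 0.57 ± 0.15 at 72 h (1.48-fold, adjusted p = 0.0318) and 0.33 ± 0.15 at 12 h (adjusted p = 0.279). The 24 h call was lost without 24 h array 2 or control 2 (highest adjusted p of 0.0624), and the 72 h call was lost without 72 h array 1, 2 or 3 or without control 4 or 5 (adjusted p of 0.0763 to 0.0999). Without control 6 it was 0.62 (adjusted p = 0.0331).

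At 24 h a further 6 members were called higher. Mrps18a, which despite its symbol sits in the large subunit, read 8.28, 7.81 and 8.26 after FSH, against 7.07, 7.35 and 7.67 in controls 1 to 3, a difference of 0.75 ± 0.19 (SE, 1.68-fold, adjusted p = 0.021). The call was lost without 24 h array 1 or 3 or without control 1 or 2 (highest adjusted p of 0.101). Mrpl20, whose bacterial counterpart is needed early in assembly of the large subunit, read 9.18, 9.59 and 9.56, against 8.63, 8.65 and 9.03, a difference of 0.67 ± 0.21 (SE, adjusted p = 0.048). Its call was lost in 12 of 18 omissions of a single array, among them 24 h arrays 2 and 3 and controls 1 and 2 (highest adjusted p of 0.156). In both genes all 3 FSH arrays stood above all 3 controls.

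The other members called at 24 h, named after their values were seen, were Mrpl14 (0.59, adjusted p = 0.00868), Mrpl16 (0.51, adjusted p = 0.0233), Mrpl54 (0.37, adjusted p = 0.038) and Mrps18c (0.33, adjusted p = 0.0203). Mrpl14 and Mrpl16 are counterparts of bacterial L14 and L16, and Mrps18c is the small subunit relative of Mrps18a. Mrps18c read 9.48, 9.46 and 9.20, against 8.91, 8.98 and 9.25 in controls 1 to 3, and here the groups overlapped. Mrpl14 read 6.61, 6.77 and 6.28 after 24 h, against 6.03, 6.12 and 5.73 in controls 1 to 3. It also read 6.47, 6.59, 6.60 and 6.53 after 12 h, above all of 6.05, 5.98, 6.28 and 6.27 in controls 4 to 7 (0.40, adjusted p = 0.0549), while at 72 h its 6.19, 6.15, 6.30 and 5.95 overlapped those controls (0.01, adjusted p = 0.986). Leaving out any single array kept the call of Mrpl14 (highest adjusted p of 0.0415). The call of Mrpl16 was lost without 24 h array 3 or control 2 (highest adjusted p of 0.0824). That of Mrpl54 was lost without 24 h array 2 or 3 or control 1 or 2 (0.125 at most), and that of Mrps18c without 24 h array 1 or 2 or control 1 or 2 (0.098 at most).

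At 12 h the remaining called member was Mrpl23, whose bacterial counterpart lies at the exit of the tunnel for the growing protein. It read 8.68, 8.53, 8.60 and 8.81 after 12 h, against 8.37, 8.45, 8.12 and 8.24 in controls 4 to 7, with no overlap. The difference was 0.36 ± 0.09 (SE, adjusted p = 0.038), and without control 6 it was 0.30 (adjusted p = 0.108). The call was also lost without 12 h array 1, 3 or 4, 72 h array 1 or 3 or control 4 or 7 (highest adjusted p of 0.121). At 72 h it was 0.09 (adjusted p = 0.842).

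At 72 h another 5 members were called that were called at neither earlier time. Mrpl36, the counterpart of bacterial L36, one of the smallest ribosomal proteins, read 7.63, 7.69, 7.50 and 7.49 after 72 h, against 6.91, 7.11, 7.00 and 6.87 in controls 4 to 7, with a wide gap between the groups. The difference was 0.60 ± 0.10 (SE, 1.52-fold, adjusted p = 0.00149), and without control 6 it was 0.61 (adjusted p = 0.00395). At 12 h it was 0.07 (adjusted p = 0.98) and at 24 h 0.09 (adjusted p = 0.603).

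Mrpl34, the counterpart of bacterial L34, read 6.97, 7.06, 6.68 and 6.66 after 72 h, against 6.38, 6.44, 6.22 and 6.23 in controls 4 to 7. The groups did not overlap, and the difference was 0.53 ± 0.13 (SE, adjusted p = 0.0214), or 0.49 without control 6 (adjusted p = 0.057). The call was also lost without 72 h array 1 or 2 or control 7 (highest adjusted p of 0.0748). The other 3, named after their values were seen, were Mrpl43 (0.50, adjusted p = 0.00487), Mrpl19 (0.39, adjusted p = 0.0313) and Mrpl21 (0.35, adjusted p = 0.0398). Without control 6, Mrpl43 was called (0.58, adjusted p = 0.00142), and Mrpl19 and Mrpl21 were not (adjusted p of 0.0872 and 0.0624). Mrpl19 was also lost without 72 h array 2 or 3 or control 7 (highest adjusted p of 0.105), and Mrpl21 in 7 further omissions, among them 72 h arrays 1 to 3 and controls 4 and 5 (highest adjusted p of 0.117). Mrpl43 read 9.06, 8.88, 8.80 and 8.76 after 72 h, against 8.09, 8.46, 8.62 and 8.31 in controls 4 to 7, again with no overlap.

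Comparing 72 h with 12 h directly asks which members differed between the late and the early time, with both groups in the same array set. Mrpl36 alone was called higher, 1 of 74 (1.35%, against 1.76% of all genes), and 0 were called lower, against 1.1% of all genes (limma, with 8 members higher and 3 lower at an unadjusted p under 0.05, against 6.8% and 6% of all genes). It read 7.63, 7.69, 7.50 and 7.49 after 72 h, against 7.19, 7.05, 6.97 and 6.98 after 12 h, a difference of 0.53 ± 0.10 (SE, 1.44-fold, adjusted p = 0.00867). The share of members called was thus no higher than that of all genes, and the member median of 0.07 stood beside 0.02 over all genes.

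Next after Mrpl36 came Mrpl43 and Mrpl51, both large subunit proteins found only in mitochondria. Mrpl43 read 9.06, 8.88, 8.80 and 8.76 after 72 h, against 8.46, 8.60, 8.47 and 8.52 after 12 h (0.36 ± 0.09, SE, adjusted p = 0.0616), and without control 4 or control 6 in the fit it was called (adjusted p of 0.0316 without control 6). Mrpl51 read 10.30, 10.21, 10.50 and 10.53 after 72 h, against 10.22, 9.94, 9.96 and 9.99 after 12 h (0.36 ± 0.10, SE, adjusted p = 0.0798). On the other side Mrpl14 read 6.19, 6.15, 6.30 and 5.95 after 72 h, against 6.47, 6.59, 6.60 and 6.53 after 12 h (-0.39 ± 0.11, SE, adjusted p = 0.0954), without overlap. Mrpl23 differed by -0.27 (adjusted p = 0.199).

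The 24 h effect came from the other array set and could be set against the others only as a difference of differences. For the 24 h effect minus the 12 h effect, limma called 0 members higher and 0 lower, against 0.282% and 0.646% of all genes, with 2 and 4 members at an unadjusted p under 0.05 (8.48% and 8.74% of all genes). For the 72 h effect minus the 24 h effect it also called 0 and 0, against 0.242% and 0.0968% of all genes, with 8 and 2 members at an unadjusted p under 0.05 (7.58% and 4.62% of all genes). A gene called at one time and not at another is therefore not shown to differ between those times, apart from Mrpl36 between 72 h and 12 h. These counts are of brightest probe sets, and a dimmer one of Mrps9, a small subunit protein with a bacterial counterpart, had called differences of -0.45 (24 h minus 12 h effect, adjusted p = 0.0162) and 0.53 (72 h minus 24 h effect, adjusted p = 0.00838).

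No member passed the test on the lower side. The smallest p-values there belonged at 12 h to Mrpl33 (-0.27, adjusted p = 0.114), Mrpl24 (-0.31, adjusted p = 0.353) and Mrpl1 (-0.26, adjusted p = 0.618), all large subunit proteins with bacterial counterparts. At 24 h they belonged to Mrps17 (-0.37, adjusted p = 0.0989), Mrps9 (-0.49, adjusted p = 0.124) and Mrpl33 (-0.22, adjusted p = 0.151). At 72 h they belonged to Mrpl24 (-0.22, adjusted p = 0.575), Mrpl33 (-0.11, adjusted p = 0.687) and Mrpl28 (-0.17, adjusted p = 0.747). Mrps9 read 7.77, 6.86 and 7.10 after 24 h, against 8.02, 7.50 and 7.68 in controls 1 to 3, and these overlapped, but each FSH array lay below the control of its own number. A second, dimmer probe set of Mrps9 was called lower at 24 h (-0.47, adjusted p = 0.000144), and with the replicate block and all 18 arrays the brightest was too (adjusted p = 0.0308).

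Some members are of interest for their place in or outside the ribosome, whatever their values. Mrpl12 forms the stalk that recruits translation factors and Mrpl10 anchors it. Mrpl12 read 9.15, 8.68, 9.06 and 9.14 after 72 h, against 8.57, 8.61, 8.55 and 8.72 in controls 4 to 7, with 72 h array 2 inside the control range (0.40 ± 0.12, SE, adjusted p = 0.0628). At 12 h it differed by 0.26 (adjusted p = 0.303) and at 24 h by 0.22 (adjusted p = 0.268). Mrpl10 differed by -0.04, 0.09 and 0.08 at 12, 24 and 72 h (lowest adjusted p of 0.612). Mrps12, part of the decoding centre, differed by 0.08, 0.09 and 0.00 (lowest adjusted p of 0.559).

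The relatives Mrps18a, Mrps18b and Mrps18c derive from a common ancestor with bacterial S18 and occupy different places in the ribosome. At 12 h they differed by 0.46, 0.22 and 0.15 (adjusted p of 0.161, 0.303 and 0.353), and at 72 h by 0.45, 0.12 and 0.14 (adjusted p of 0.156, 0.699 and 0.383), none called. At 24 h Mrps18a and Mrps18c were called, as given above, and Mrps18b was not (0.20, adjusted p = 0.247). Mrps36, despite its name a component of the 2-oxoglutarate dehydrogenase complex, differed by 0.23, 0.25 and 0.22 at 12, 24 and 72 h, none called (adjusted p of 0.499, 0.294 and 0.52).

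The members were also grouped by place in the ribosome, after values were seen. Over all genes 3.52%, 6.38% and 4.23% were called higher at 12, 24 and 72 h. Of 27 large subunit proteins with a bacterial counterpart, 1, 3 and 4 were called higher at 12, 24 and 72 h, with medians of 0.12, 0.13 and 0.16. Of 22 large subunit proteins found only in mitochondria, 2, 3 and 4 were called, with medians of 0.12, 0.17 and 0.18. Of 15 small subunit proteins with a bacterial counterpart, 3, 3 and 3 were called, with medians of 0.12, 0.09 and 0.14. Of 9 small subunit proteins found only in mitochondria, a single gene was called, Mrps34 at each time, with medians of 0.20, 0.19 and 0.16. Differences between the classes were not tested.

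The controls of the 2 array sets differed more than FSH moved most members. Controls 1 to 3 against controls 4 to 7, both untreated, gave 0 members higher and 18 of 74 lower (24.3%), against 3.05% and 5.79% of all genes (limma), with a member median of -0.25 and an all-gene median of 0.02. Mrps25 (-0.69), Mrpl38 (-0.68) and Mrps6 (-0.51) were among these 18. Array set and animals cannot be told apart here, and a contrast of 24 h arrays with controls 4 to 7 would carry this difference.

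For 33 members the array held more than 1 probe set. No member had probe sets called in opposite directions at any time. Where the brightest was called, all the others had its sign in 1 of 2 members at 12 h, 1 of 1 at 24 h and 4 of 6 at 72 h. The 2 members at 12 h were Mrpl52 and Mrps15, so 1 of them had a further probe set of the opposite sign. For Mrps15 the second probe set gave 0.15, 0.19 and 0.45 at 12, 24 and 72 h (adjusted p of 0.897, 0.507 and 0.153). It had the sign of the brightest at 12 h and 72 h and the opposite sign at 24 h, where neither was called. In the RefSeq annotation 23 members overlap another gene, 15 of them a gene measured here, and probes cannot always separate such pairs.

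Subunits of the same ribosome whose symbols do not begin with Mrp numbered 4 on the array. For this list and those below, 3.52%, 6.38% and 4.23% of all genes were called higher at 12, 24 and 72 h. Of these, Gadd45gip1 and Chchd1 were called higher at 12 h, 0 were called at 24 h and Gadd45gip1 alone at 72 h, and the list medians were 0.23, 0.22 and 0.28. Gadd45gip1 read 7.49, 7.64, 7.68 and 7.86 after 12 h and 7.77, 7.66, 7.78 and 7.45 after 72 h, against 6.48, 6.75, 7.20 and 6.87 in controls 4 to 7. All 8 FSH arrays lay above all 4 controls, and the difference was 0.84 at 12 h (adjusted p = 0.00151) and 0.83 at 72 h (adjusted p = 0.00165). Chchd1 read 9.76, 9.47, 9.26 and 9.50 after 12 h, against 8.96, 8.91, 8.78 and 8.69 in controls 4 to 7 (0.66, adjusted p = 0.00559), and at 24 h and 72 h its differences of 0.26 and 0.44 were not called (adjusted p of 0.228 and 0.0572). Without control 6 the same genes were called at 12 h and 72 h. Dap3 (-0.33, adjusted p = 0.216) and Ptcd3 (-0.20, adjusted p = 0.202) were not called at 12 h.

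Other genes work beside the ribosome. Their lower calls stand beside 2.76%, 8.45% and 3.03% of all genes called lower at 12, 24 and 72 h. Of 14 translation factors and related genes, Gfm1 was called higher at 12 h and 24 h, Trit1 was called lower at 24 h, and 0 were called at 72 h, with medians of 0.00, 0.02 and 0.10, and 7, 7 and 11 of the 14 were above 0. Without control 6 Gfm1 was called at 72 h too (0.38, adjusted p = 0.0344). Gfm1, the elongation factor that moves the ribosome along, was higher by 0.93 at 24 h (adjusted p = 0.000136) and Trit1, which modifies tRNAs, differed by -0.56 (adjusted p = 0.0376), a call that was lost without any 1 of the 24 h arrays or without control 1 or 2 (highest adjusted p of 0.152). Of 17 assembly and rRNA modification factors, 0 were called higher and 1, 1 and 0 lower at 12, 24 and 72 h, with medians of -0.07, -0.28 and -0.05. The 1 was Ngrn, which binds the large ribosomal RNA of mitochondria, at -0.30 at 12 h (adjusted p = 0.0407) and -0.67 at 24 h (adjusted p = 0.000337). Its 12 h call was lost in 10 of 18 single omissions, among them every 12 h array and every one of controls 4 to 7 (0.0511 without control 6 and 0.0974 at most), and after quantile normalization (adjusted p = 0.063).

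Of 9 mitochondrial aminoacyl-tRNA synthetases, Pars2 (-1.42, adjusted p = 0.00276) and Hars2 (-1.03, adjusted p = 0.0148, but 0.057 without control 1) were called lower at 24 h, and 0 were called at 12 h or 72 h. At 24 h 8.45% of all genes were called lower, or 13.8% of those at level 4 or more. Of 14 genes of mitochondrial transcription and biogenesis, Mterf2 was called lower at 12 h, 0 were called at 24 h, and at 72 h Gabpa, the DNA-binding subunit of the ETS factor GABP, was lower (-0.48, adjusted p = 0.00851) and Esrra higher (0.82, adjusted p = 0.0461). The Esrra call was lost without control 6 (adjusted p = 0.0759) and in 13 of 18 single omissions in all, every control among them (highest adjusted p of 0.144), while that of Gabpa was kept in all 18. Without control 6 Mterf2 was called lower at 72 h as well (-0.85, adjusted p = 0.0028). Nrf1, Yy1, Tfam and Polrmt were not called at any time. Medians of this list were -0.08, -0.10 and -0.04.

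Of 18 import and chaperone genes, 3, 6 and 4 were called higher at 12, 24 and 72 h and 0 lower, with medians of 0.20, 0.13 and 0.20. The shares of all genes called higher were 3.52%, 6.38% and 4.23%, and of those called lower 2.76%, 8.45% and 3.03%. Tomm40, the channel through which precursor proteins enter, read 8.01, 7.76 and 7.83 after 24 h, against 7.06, 6.78 and 6.97 in controls 1 to 3 (0.93, adjusted p = 0.000123), with no overlap. Of 79 nuclear-encoded respiratory chain subunits, 12, 22 and 10 were called higher and 1, 1 and 0 lower, with medians of 0.19, 0.24 and 0.18. Of 46 cytosolic ribosomal proteins, 1, 4 and 1 were called higher and 1, 6 and 4 lower, with medians of -0.01, -0.10 and -0.07. Without control 6, the import list had 4 and 4 called higher at 12 h and 72 h, the respiratory chain list 9 and 9, and the cytosolic list 1 and 1 higher and 2 and 5 lower. The lists were chosen with earlier results of these data known, and no difference between lists was tested.

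**Figure D5:**
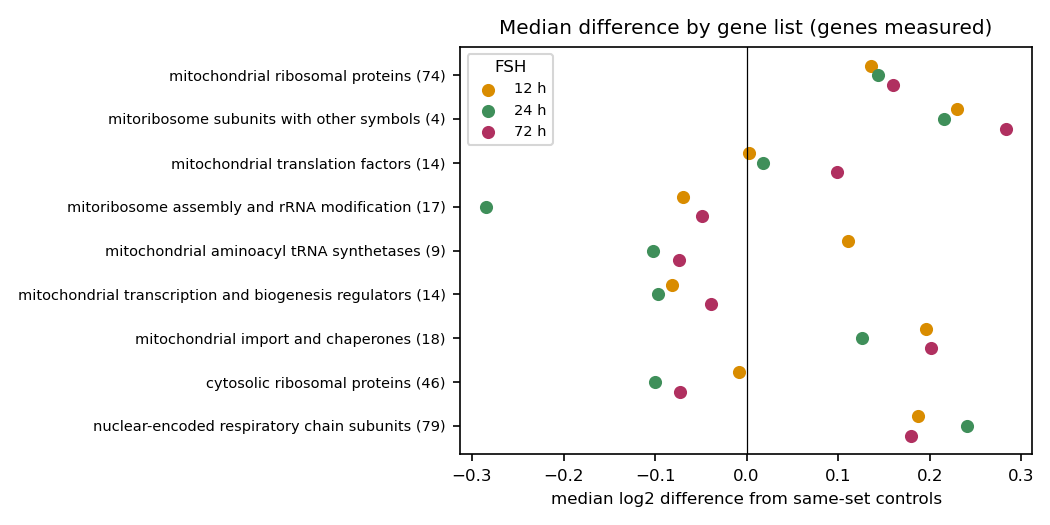
Median log2 difference from same-set controls at 12, 24 and 72 h of FSH for the 74 mitochondrial ribosomal protein genes and 8 other lists, with the number of genes measured in parentheses. The members (0.14, 0.14 and 0.16), the import genes and the respiratory chain subunits are right of 0 at all 3 times. So are the subunits with other symbols and the translation factors, the latter barely at 12 h (0.00). The assembly factors, the transcription and biogenesis genes and the cytosolic ribosomal proteins are left of 0 at all 3 times. The aminoacyl-tRNA synthetases are right of it at 12 h and left of it at 24 and 72 h.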

How the data were processed

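RNA of 18 whole testes was measured on Affymetrix arrays, 1 array per mouse. The deposited table holds log2 expression values (1.04 to 15.2). RMA and GCRMA are named in the submitters' processing notes, and which made these values is not given in the sources used here, so low signals may be compressed. Probe sets were named through the platform annotation: 20380 had 1 symbol, 691 several and 1555 none, and 64 control probe sets were left out. Limma 3.58.1 in R 4.3.3 fitted 5 group means to all 18 arrays, with 13 residual degrees of freedom and Benjamini-Hochberg adjustment over 22626 probe sets. Array sets were inferred from control probes. Same-numbered 24 h and control arrays deviated together (correlations 0.18, 0.34 and 0.41). These numbers were taken as pairs in the block alternatives only, and the main fit had no replicate term. The 72 h and 12 h numbers (0.01 to 0.13) were not taken as pairs. Labels do not say whether animals were littermates. The number of arrays limits the precision. The members and lists were chosen with earlier results of these data known. Named members were up to 6 largest calls per direction, or the 3 smallest p-values, levels at both ends, and 7 chosen genes. Alternatives dropped the array set, fitted each set alone, quantile normalized, filtered on a level of 4, averaged probe sets, blocked on replicate and left out each array. The fits were tested on simulated data.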

Additional observations from a re-analysis of the deposited data

Results flagged for a closer look

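Single arrays stood apart within their group for 10 of 189 combinations of a named gene and a group of 4 (5.29%), where chance gives about 5%. Among the members, Mrpl28 read 7.70 on the third 12 h array, against 7.99 to 8.04 on the others, and Mrpl51 read 10.22 on the first 12 h array, against 9.94 to 9.99. Mrps36 read 8.33 on the first 12 h array, against 7.65 to 7.72, and 7.47 in control 7, against 7.65 to 7.68 in controls 4 to 6. Mrps12 read 8.35 on the fourth 72 h array, against 8.36 on each of the other 3. Among other named genes, Chchd1 read 8.999 on the first 72 h array (others 9.35 to 9.38), Gabpa 7.17 on the fourth 72 h array (6.79 to 6.80), Tomm40 7.00 in control 4 (7.29 to 7.33), Cs 10.05 on the fourth 12 h array (10.10 to 10.11) and Rps28 13.92 on the first 12 h array (13.75 to 13.78).

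The response differed between times, by limma's test of the difference itself, in 5 named genes. Mrpl36 was 0.53 higher at 72 h than at 12 h (adjusted p = 0.00867). Ndufv3, a subunit of respiratory complex I, was 0.62 higher at 72 h than at 12 h (adjusted p = 0.0252), and the protease Lonp1 differed by -0.61 (adjusted p = 0.0119). The 72 h effect minus the 24 h effect was 0.68 for Ngrn (adjusted p = 0.0285), and the 24 h effect minus the 12 h effect was 0.55 for Sdhb (adjusted p = 0.0486), each effect taken against controls of the same array set.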

How the results depend on the processing

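Ignoring array set gave 14 members higher at 12 h (median 0.22), 7 lower at 24 h (median -0.0017), 22 higher at 72 h (median 0.28), 1 higher and 21 lower for the 24 h minus the 12 h effect, and 27 higher and 2 lower for the 72 h minus the 24 h effect. It turned Mrpl10 at 12 h to 0.0019, Mrps12 at 24 h to -0.0316 and Mrps18b at 24 h to -0.13. Fitting each set alone gave 3 higher at 24 h, and 2 higher and 1 lower for 72 h minus 12 h. Quantile normalization gave a 24 h median of 0.23, Tars2 0.0146 at 24 h and Mrps12 -0.00242 at 72 h. Averaging probe sets gave 2 higher for 72 h minus 12 h, and turned Mrpl1 at 12 h (0.0096), Mrpl33 at 24 h (0.0015) and Rpl41 at 24 h (-0.10). The replicate block gave 0 higher at 24 h and 2 higher for 72 h minus 12 h, whose numbers were not pairs, and with all 18 arrays, added after the data were seen, 1 lower at 24 h. Leaving out single arrays gave 3 to 8 members higher at 12 h, 4 to 12 higher and 0 to 1 lower at 24 h with medians of 0.12 to 0.21, 7 to 15 higher at 72 h, 1 to 2 higher for 72 h minus 12 h, 0 to 1 lower for the 24 h minus the 12 h effect and 0 to 1 higher for the 72 h minus the 24 h effect. In the same omissions Mrpl10 at 12 h ran from -0.12 to 0.038, Rars2 at 24 h from -0.085 to 0.34 and Mrps12 at 72 h from -0.015 to 0.021. The causes were not tested. With 3 or 4 arrays a group, the smallest called difference among the members from controls was 0.33.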
